A study of Mus musculus with 19 samples.

Results

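Mature CD8 single-positive thymocytes are the CD8-lineage cells that have finished selection in the thymus and are close to leaving it. They were picked out here by their RNA. A cell counted as a member if it had at least 200 detected genes, at most 15% mitochondrial UMIs (unique molecular identifiers, each 1 captured RNA molecule), at least 1 UMI each of Klf2, Nkg7 and Cd8b1, and 0 UMIs of Cd4, Foxp3, Zbtb16 and Mki67. Of 79569 cells that passed the first 2 of these limits, 4389 were members. Klf2 encodes a transcription factor that switches on thymic exit genes, Nkg7 a protein of cytotoxic granules and Cd8b1 the beta chain of the CD8 coreceptor. The absent genes mark CD4 cells, regulatory T cells, innate-like T cells and dividing cells in turn. The levels of these 7 genes chose the cells and are in no count of a gene list below.

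The thymus of 17 female mice, 4 to 8 weeks old, was profiled on 19 lanes by CITE-seq, which counts RNA and 111 antibody tags in the same single cells. CD8-fated mice were MHCII-/- (H2-Ab1-/-, lacking MHC class II, with a diverse T cell receptor repertoire), OT-I (a transgenic receptor for MHC class I) and F5 (a transgenic class I receptor driven by CD2 promoter sequences, on a Rag1-/- background), with 2 mice each. CD4-fated mice were AND (a transgenic class II receptor, Rag1-/-), OT-II (a transgenic class II receptor) and MHCI-/- (B2m-/-, on a B6.129P2 background), also 2 each, and 5 mice were C57BL/6 wild type (WT). MHCI-/-, MHCII-/- and WT replicates 1 to 3 had been sorted for CD5+TCRβ+ cells and the others had not. The comparisons therefore set MHCII-/- and F5 against the sorted WT mice, and OT-I against unsorted WT replicates 4 and 5, which came from its own experiment. F5 and sorted WT mice came from the same 2 experiments, while both MHCII-/- mice shared theirs with WT sorted replicates 2 and 3 but not with replicate 1. For F5 the sort and the Rag1-/- background go with the genotype and cannot be told apart from it. Each mouse was 1 replicate, and the 2 lanes of WT replicates 4 and 5 were summed.

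Developing T cells first carry both coreceptors. Those whose receptor binds MHC class I end with CD8, without CD4 and with Runx3 in place of the CD4-lineage factor ThPOK (Zbtb7b). In the paper on these data they first passed through a stage with CD4 and low CD8. The new single-positive cells are at first semimature, with CD24 and CD69 on the surface and chemokine receptors that hold them in the thymus. As they mature they lose both proteins, gain the exit receptor S1PR1, and CD8 cells take up CD103, the integrin alpha chain that pairs with integrin β7. Mature thymocytes are also known to gain a tonic interferon signature and class I MHC.

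Most members had more than the minimum of each marker. Klf2 was at 1 UMI in 587 members (13.4%), Nkg7 in 852 (19.4%) and Cd8b1 in 259 (5.90%), with medians of 5, 4 and 8 UMIs. Just outside the rule, 1403 cells failed only for lack of Klf2, 3617 only for Nkg7, 1252 only for Cd8b1, 351 only through Cd4 and 813 only through Mki67. The median member had 3897 to 10442.5 RNA UMIs in the WT and CD8-fated mice. A barcode shared with a member of another lane occurred in 14 of 4389 members (0.319%). Over all 85389 barcodes, 2.34% were shared between lanes. The pools differ in size and sharing with non-members was not counted, so these shares cannot be compared. A doublet score called 208 members, and they were kept in the main results.

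The surface proteins, which the rule did not use, matched the CD8 part of the label in WT and CD8-fated mice. CD8b and CD4 are the proteins of Cd8b1 and Cd4, whose RNA the rule did use, so they are not independent of it. The CD8b antibody count exceeded the CD4 antibody count in 91.6% to 99.3% of members of each of these 11 mice, against 0% to 2.17% of mature CD4 cells in WT mice. In immature CD8 cells of the same 11 mice, described below, it did so in 72.7% to 90.5%, so the share checks the lineage and not the stage. The label did not hold in the AND and OT-II mice. Only 59.3% of the 59 AND replicate 1 members with good antibody data and 50% of the 10 in replicate 2 had more CD8b than CD4, and 32.3% of the 62 AND replicate 1 members had a UMI of Tcrg-C1, a gamma-delta receptor gene, against 0.476% to 9.52% in the 5 WT mice. In OT-II replicate 1 82.4% of 17 members had more CD8b than CD4, but Tcrg-C1 had a UMI in 58.8% of them and in 80% of the 5 members of replicate 2. The few cells of the CD4-fated mice are called members by the rule alone.

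Members were common in CD8-fated mice and rare in CD4-fated mice. They made up 15.01% and 15.9% of cells in the MHCII-/- mice, 20.9% and 7.53% in OT-I and 20.4% and 10.4% in F5. In the CD4-fated mice they were 2.32% and 0.579% in AND, 0.292% and 0.157% in OT-II, and 0.0682% and 0.111% in MHCI-/-. The 2 sets did not overlap. The mean was 15.02% ± 5.32 (SD, n = 6) against 0.588% ± 0.868 (SD, n = 6), a difference of 14.4 percentage points (two-sided exact permutation test, p = 0.00216, the smallest this design allows). These genotypes restrict cells to the CD8 or the CD4 lineage, so a separation was built into the design. The p therefore checks the rule and is not a result about the members. The rule selected on RNA, and cells with more UMIs pass it more easily. After each cell was thinned to 1000 UMIs the difference was 2.77 points, with the same p.

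In wild-type mice the share went with the sort and with the experiment, which cannot be told apart here. Members were 4.94%, 6.74% and 8.50% of the sorted WT cells and 1.11% and 0.435% of the unsorted ones. Depth differed too, with a median over all cells of 5103, 4151 and 4510 RNA UMIs in sorted and 3086 and 1541 in unsorted mice. Thinned to 1000 UMIs a cell, the shares were 0.720%, 1.08% and 1.87% in sorted and 0.172% and 0.115% in unsorted mice. Among CD8-committed cells, taken as members plus the cells that failed only for lack of Klf2, the member share was 78.3% ± 11.4 (SD, n = 6) in CD8-fated and 65.1% ± 19.9 (SD, n = 5) in WT mice. This share is the rate at which Klf2, a gene of the rule, was detected, and is a description. The groups overlapped and their means differed by 13.2 points. The difference fell to 4.75 points without unsorted WT replicate 5, where only 31.3% of the CD8-committed cells were members and the median cell of the lane pair had 1541 RNA UMIs.

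**Figure D1:**
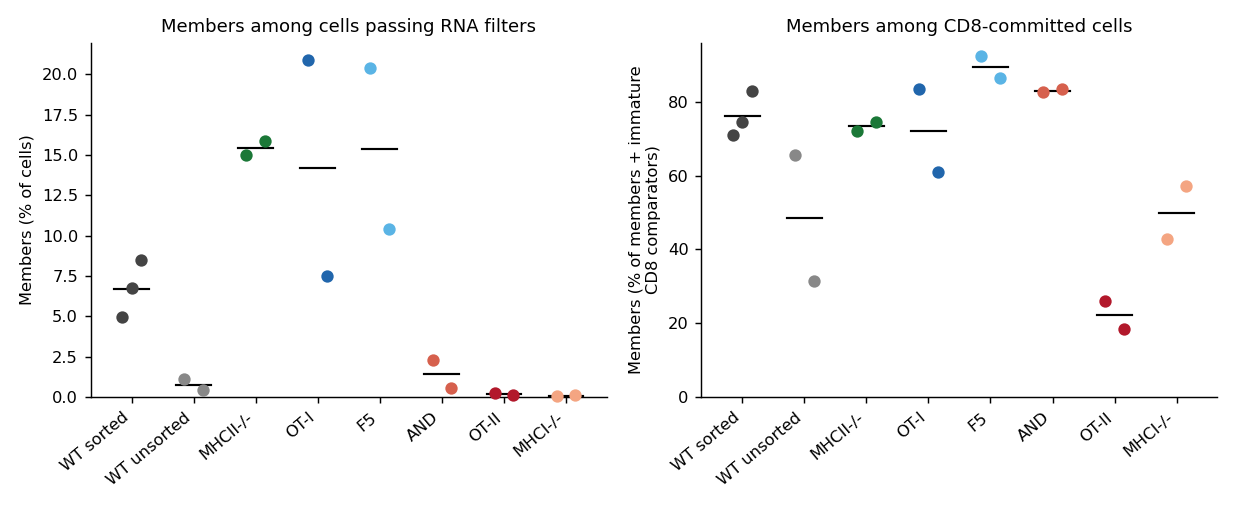
Share of members in each mouse, by genotype, as a percentage of all cells passing the RNA filters (left) and of CD8-committed cells (right); each point is a mouse and each bar the mean of its group. On the left the 6 CD8-fated mice lie at 7.53% or above and the 6 CD4-fated mice at 2.32% or below.

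A pair of cell classes served as a yardstick for the members. Immature CD8 cells were the 1403 cells that met the rule except that Klf2 had 0 UMIs, and mature CD4 cells were 5244 cells with Klf2 and Cd4 UMIs and none of Nkg7, Cd8b1, Foxp3, Zbtb16 and Mki67. Their RNA levels are given as UMIs per 1000000 summed UMIs (CPM) and are a description, since RNA defined the classes. A Klf2 count of 0 depends on depth. Thinned to 1000 UMIs a cell, the member share of CD8-committed cells in CD8-fated mice was 46.3%, against 78.3% before. Median RNA UMIs of immature CD8 cells and of members were 6495 and 8829.5 in WT sorted replicate 1, and 4491.5 and 4527 in F5 replicate 2. The immature class can therefore hold mature cells.

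In RNA, lineage genes set the members of the 5 WT mice apart from mature CD4 cells. Runx3, the CD8-lineage factor, lay between 243 and 488 CPM (median 273) in members and between 41.3 and 85.3 in mature CD4 cells. Zbtb7b was nearly absent from members, at 0 to 2.07 CPM, and was 58.1 to 89.0 CPM in mature CD4 cells. Itgae, the gene of CD103, was 120.4 to 217 CPM in members, 61.9 to 90.0 in immature CD8 cells and 0 to 1.95 in mature CD4 cells. No range of these 3 genes in members met the range in mature CD4 cells.

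The exit genes set the members apart from the immature CD8 cells of the same mice. S1pr1, the receptor that leads cells out of the thymus, ran from 136 to 337 CPM (median 163) in members and from 13.8 to 98.9 in immature CD8 cells, and mature CD4 cells reached 203 to 398. Klrd1, a receptor chain of natural killer and CD8 T cells, had a median of 86.5 CPM in members, 42.4 in immature CD8 cells and 3.03 in mature CD4 cells. Cd24a had a median of 16.1 CPM in members and 63.7 in immature CD8 cells, but in WT unsorted replicate 5 the members held 96.3 CPM. That mouse also had the highest summed level of the double-positive marker list in its members among the WT mice (668 CPM, against 23.3 to 140 in the other 4), whose part in its values was not tested.

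Surface protein was then compared between members and immature CD8 cells within each of 11 mice, with the mouse as a block. Of 111 antibodies 7 were higher in members (6.31%) and 15 lower (13.5%). Values are antibody UMIs per 10000, and adjusted p is Benjamini-Hochberg corrected edgeR quasi-likelihood p over all antibodies, with a call at under 0.05.

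Members had more of the CD103 integrin and of a cytokine receptor chain. Integrin β7 ran from 108 to 616 (median 309) in members and from 21.9 to 291 (median 139) in immature CD8 cells, and was higher in all 11 mice (log2 fold change 1.45, SE 0.14, adjusted p = 7.63e-06). Its partner CD103 had medians of 121 and 66.9 (0.94, SE 0.15, adjusted p = 0.000197). CD122, the beta chain of the IL-2 and IL-15 receptors, had medians of 4.94 and 3.56 (0.42, SE 0.07, adjusted p = 0.000201). The complement regulator CD55 and the sialoglycoprotein CD43 also rose in all 11 mice, by 1.21 and 0.27 on the log2 scale.

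The proteins of the immature stage were lower on members. CD24 had a median of 61.3 in members and 123 in immature CD8 cells (-1.13, SE 0.13, adjusted p = 1.03e-05), and the early activation marker CD69 had 25.6 and 51.7 (-0.79, SE 0.10, adjusted p = 1.93e-05). CD4 protein fell by 1.73 on the log2 scale, from a median of 211 to 65.5, although neither class had a Cd4 UMI. CD24, CD69 and CD4 were each lower in 11 of 11 mice. The signaling receptor CD150 fell by 0.80, the costimulatory receptor CD28 by 0.61 and CD90.2, the T cell protein Thy1, by 0.45, also in 11 of 11. CD8a, CD8b, CD5 and TCRβ did not pass (log2 fold changes 0.20, 0.21, -0.04 and -0.16). With total antibody counts in place of TMM scaling both CD8 antibodies passed (0.25 and 0.26). Dropping the mouse block left 5 calls.

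Against mature CD4 cells of the 5 WT mice, 12 antibodies were higher in members (10.8%) and 12 lower (10.8%), with the mouse as a block. CD8a and CD8b were each higher by 4.92 on the log2 scale (SE 0.19 and 0.18). RNA of Cd8b1 and Cd4 defined both classes, so the CD8b and CD4 antibodies, which are in these counts, only check the classes. Integrin β7 ran from 251 to 616 in members and from 23.2 to 46.6 in CD4 cells (3.39, SE 0.12, adjusted p = 9.47e-07), and CD103 from 109 to 197 and from 9.79 to 39.0 (2.72, SE 0.25, adjusted p = 0.000156). The adhesion molecule CD54 (1.25), CD122 (0.58) and the antibody to MHC class II, I-A/I-E (0.63), were also higher in 5 of 5 mice.

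Among the lower antibodies were some linked to receptor signaling. CD5, whose level is set by receptor signal strength, was 854 to 1356 in members and 2029 to 2923 in CD4 cells (-1.33, SE 0.10, adjusted p = 4.5e-05). TCRβ was 75.4 to 131 and 130.2 to 259 (-1.003, SE 0.07), CD69 was 19.8 to 35.2 and 51.1 to 64.4 (-1.19, SE 0.12), and each was lower in 5 of 5 mice. Sca-1, an Ly6 family protein, fell by 1.94, and the costimulatory receptors ICOS and GITR by 0.72 and 0.68. CD24 did not pass (-0.19, adjusted p = 0.440), nor did CD28 (-0.21), LAG-3 (-0.25) and PD-1 (-0.05).

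**Figure D2:**
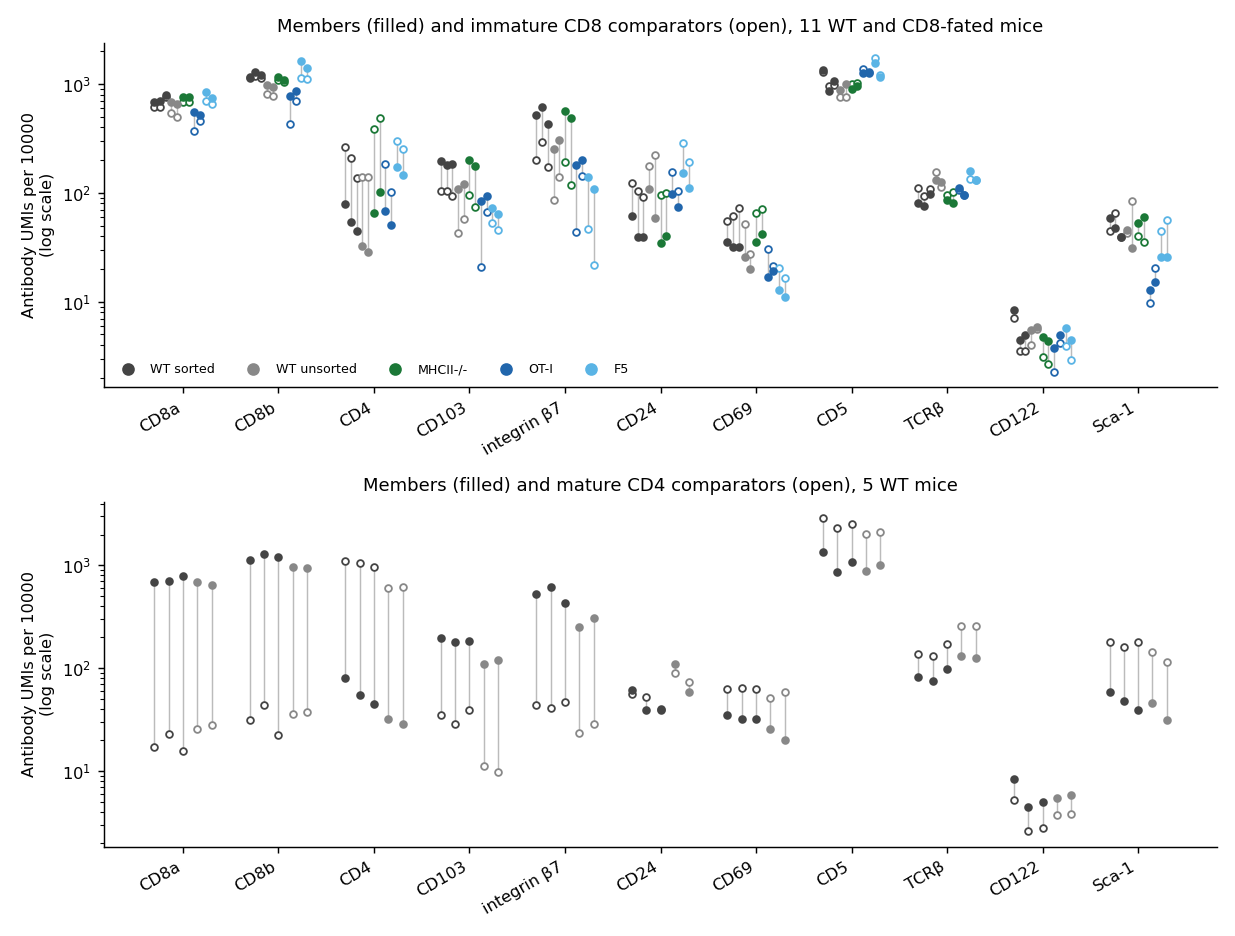
Antibody UMIs per 10000 (log axis) for 11 antibodies, in members (filled) and immature CD8 cells (open) of 11 mice above and in members and mature CD4 cells (open) of 5 WT mice below; a line joins the classes of a mouse and color gives the genotype. Integrin β7 was higher in members in every mouse of both panels, and CD24 was lower than in immature CD8 cells in 11 of 11 mice.

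Members still differed among themselves in RNA of the maturity lists. In each lane they were divided at the median of the CD24 antibody, and RNA was compared between CD24-high and CD24-low members within each of 11 mice. Of 8948 genes 681 were higher (7.61%) and 760 lower (8.49%) in CD24-high members. The antibody made the split and RNA was the readout.

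CD24-high members had more RNA of genes of the semimature list. Of the 7 genes of the semimature list 5 were higher, with a list median of 1.13 against 0.00 over all genes (log2 scale). Among the 5 is Cd24a, whose protein made the split, so its call is tied to the split. The others were Ccr9, Ccr4, Itm2a and Nr4a1. Cd24a itself had a median of 38.3 CPM in CD24-high and 5.47 in CD24-low members (2.54, SE 0.16, adjusted p = 1.17e-16). Itm2a, a membrane protein of thymocytes under selection, had medians of 180.0 and 79.0 CPM (1.13, SE 0.06), and Nr4a1, an immediate target of receptor signaling, 42.6 and 9.65 (1.62, SE 0.16). Sox4, a factor of early thymocytes, was 159 to 373 CPM in CD24-high and 26.3 to 199 in CD24-low members, higher in 11 of 11 mice (1.46, SE 0.09, adjusted p = 1.17e-16).

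All 11 genes of the exit and maturity list were lower in CD24-high members, with a median of -0.48. S1pr1 had medians of 126 CPM in CD24-high and 195 CPM in CD24-low members (-0.80, SE 0.06, adjusted p = 3.92e-14). The IL-7 receptor gene Il7r had 93.1 and 133 CPM (-0.76, SE 0.07), and the class I gene H2-Q7 103.04 and 247 CPM (-1.38, SE 0.08). Among abundant genes outside the lists, Dapl1 was 91.6 CPM in CD24-low and 19.0 CPM in CD24-high members (-2.38, SE 0.10, adjusted p = 2e-22), and the chemokine receptor gene Cxcr6 (-1.86) and the IGF-binding protein gene Igfbp4 (-1.71) were also lower in 11 of 11 mice.

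Interferon-induced genes were lower in the CD24-high members in 11 of 16 cases and higher in 0, with a median of -0.28. Ifi27l2a, an interferon-induced mitochondrial protein, had medians of 805 and 1417 CPM (-0.95, SE 0.06, adjusted p = 3.41e-17) and was lower in 11 of 11 mice. Of 12 MHC class I genes 10 were lower (median -0.31), among them H2-K1 (-0.49) and B2m (-0.34). With OT-I and F5 mice alone the interferon count was 4 of 15 and the class I count 6 of 11, where 7.82% of all genes were called.

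The cytotoxic and signaling lists divided. Of 8 cytotoxic genes 5 were lower in CD24-high members, among them Klrd1, at a median of 16.8 CPM against 89.1 in CD24-low members (-2.36, SE 0.11, adjusted p = 1.18e-21), and the protease inhibitor gene Cst7 (-1.03). The other calls were higher, Gzma, which encodes granzyme A (3.24, SE 0.22, in 9 of 11 mice), and the chemokine gene Xcl1 (0.86, in 3 of 11 mice and lower in 5). Xcl1 turned to -0.12 without MHCII-/- replicate 2 and to -0.48 with DESeq2. Of 18 receptor response genes 8 were higher, among them Egr1 (0.70) and Dusp5 (0.91), and 1, Myc, was lower (-0.25). Of 8 memory-like genes 6 were lower, among them Ly6c2 (-3.36) and the transcription factor gene Eomes (-1.50). Of 9 CD8 identity genes 7 were higher, among them Tox (0.66) and Satb1 (0.59).

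Lists of other cells moved with the split. Called doublets were kept in both splits, with no run without them, and the part of doublets or stray RNA was not tested. Of 5 double-positive marker genes 4 were higher in CD24-high members, Arpp21 most (medians 24.2 and 3.65 CPM, 2.54, SE 0.20), and all 6 gamma-delta genes tested were higher. Il17rb of the innate-like T cell list, the hemoglobin gene Hbb-bs and the cycling gene Stmn1 were higher as well. The erythroid marker list, which holds Hbb-bs, summed to 723 CPM in members of OT-I replicate 1. In the other WT and CD8-fated mice it was at most 24.1 CPM. The B cell genes Cd79b and Ighm and the myeloid gene Cd74 were lower. Members with a UMI of a gamma-delta gene other than Trdc, 494 in all (11.3%), were 34.5% and 34.9% of the CD24-high members of the OT-I mice and 35.0% in WT unsorted replicate 5, against 2.55% to 9.47% in the other 8 mice. Of CD24-low members they were 16.8% and 12.7% in the OT-I mice and 0% to 6.11% in the other 9, and in WT sorted replicate 3 this share was the higher one (3.92% against 2.94%). Without these 494 cells the exit list was lower in 10 of 11, the interferon list in 11 of 16 and the class I list in 10 of 12 genes.

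Members were also divided at the median of the CD103 antibody. Of 8966 genes 561 were higher (6.26%) and 438 lower (4.89%) in CD103-high members. The exit and maturity list was higher in 10 of 11 genes (median 0.38), the interferon list in 8 of 16 (0.24) and the class I list in 7 of 12 (0.25), and 6 of 7 semimature genes were lower (-1.07). Itgae, the gene of CD103, had medians of 152 CPM in CD103-high and 107 CPM in CD103-low members (0.98, SE 0.10, adjusted p = 5.96e-11). Its protein made this split, so its call is tied to the split. Klrd1 (1.65) and Cxcr6 (1.35) were higher and Nr4a1 (-1.43) and the creatine kinase gene Ckb (-1.56) lower in 11 of 11 mice. Of 8 memory-like genes only Ly6c2 was higher, where 6 had been lower in CD24-high members. Within CD24-low members alone Ly6c2 turned to -0.41 and was not called. Ccl5, a chemokine gene of effector CD8 cells, was lower in the high class of both splits (-2.54 for CD24 and -3.18 for CD103). Other cell markers moved here too, with 6 of 6 gamma-delta genes, 4 of 6 double-positive genes and 2 of 2 tested CD4 and regulatory T cell genes lower in CD103-high members. Il17rb and the cycling gene Stmn1 were also lower. The B cell genes Cd79b and Ighm, the hemoglobin gene Hbb-bs and the cycling genes Top2a and Pcna were higher. Hbb-bs was thus higher in the high class of both splits (6.61 for CD24 and 6.59 for CD103), and most erythroid RNA of members was in OT-I replicate 1.

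The 2 splits were not independent. CD103-high cells were 55.0% to 80.1% of CD24-low members and 19.7% to 40% of CD24-high members. Within the CD24-low members alone, a separate CD103 split called 91 of 7380 genes (1.23%), of which 78 were among the 999 called in all members and 75 also had the same direction. It called 1 of 11 exit genes, 0 of 16 interferon genes and 1 of 12 class I genes. This smaller split also held fewer cells.

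**Figure D3:**
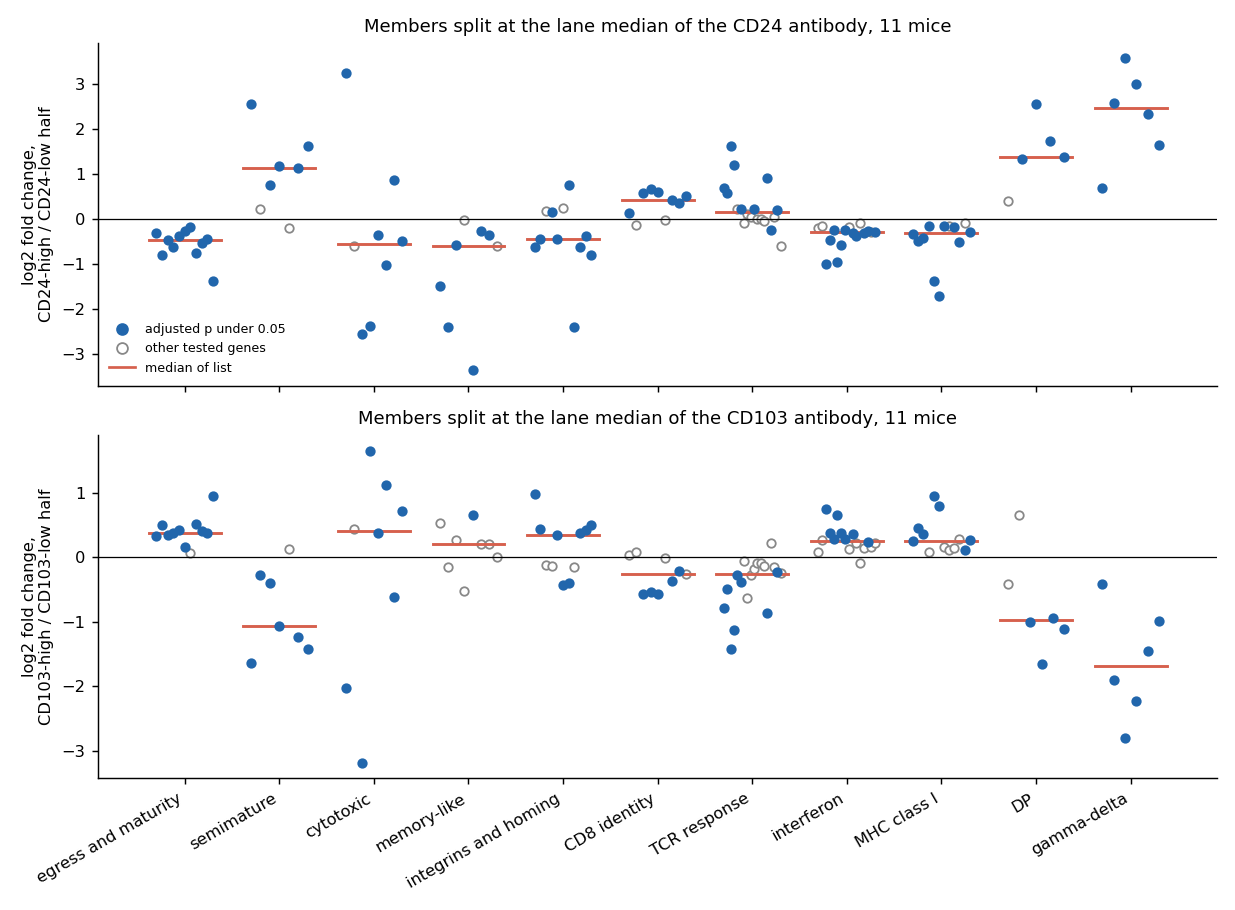
Log2 fold change of each list gene between CD24-high and CD24-low members (above) and between CD103-high and CD103-low members (below); each point is a gene, filled where adjusted p was under 0.05, and the red bar is the list median. The exit and maturity genes lie below 0 in the CD24 panel, with 11 of 11 called, and above it in the CD103 panel, with 10 of 11 called.

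Genotypes were next compared with each gene's member UMIs summed per mouse, in 1 fit over 10126 genes. Between OT-I and unsorted WT members 10 genes were higher (0.0988%) and 18 lower (0.178%), and 475 genes had an unadjusted p under 0.05. Each OT-I mouse shared a set of lanes with 1 of these WT mice, and with the set as a term 138 genes were called (1.36%). No gene of the exit, semimature, receptor response or CD8 identity lists passed, and with the lane term 1, 2, 1 and 0 did. These lists held 11, 7, 19 and 9 tested genes, and their median log2 fold changes were 0.08, 0.21, -0.13 and 0.22 against 0.03 over all genes.

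Of the 6 tested genes of the gamma-delta list, 2 rose in OT-I members, Trdc and Cd163l1. The summed list was 605 and 484 CPM in OT-I and 68.7 and 626 CPM in unsorted WT members. Tcrg-C1 had a UMI in 9.55% and 9.62% of OT-I members and in 2.16% and 9.52% of unsorted WT members. Trdc, the constant gene of the delta receptor chain, was 463 and 310.5 CPM in OT-I and 35.5 and 60.2 in WT members (3.27, SE 0.52, adjusted p = 0.0139). Its UMIs occurred in 67.2% and 53.3% of all cells of the OT-I mice, so it does not single out a cell type here. Cd163l1, a scavenger receptor gene of gamma-delta cells, was 48.5 and 48.7 against 1.58 and 6.02 CPM, where the WT values rest on 3 UMIs (ratio 23.2, exact 95% interval 7.87 to 113 for counting error). Gzma was 182 and 84.5 against 14.2 and 36.1 CPM (2.95, SE 0.58), and 94.5% of its UMIs in OT-I replicate 1 came from the top 5% of members. Pdlim4 (3.78), an adaptor of the actin cytoskeleton, the integrin gene Itgb3 (1.76) and the sialyltransferase gene St6gal1 (1.67) rose as well.

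Among the genes that fell in OT-I, Ly6d was 0.863 and 1.84 CPM against 31.6 and 84.3 (-5.28, SE 0.72, adjusted p = 0.00285). The double-positive markers moved with it, at a summed 69.5 and 79.9 CPM in OT-I and 140 and 668 in WT members, with 0 of 7 called (list median -1.18), and their part was not tested. Ifit3, an interferon-induced gene, was 23.2 and 6.43 against 91.6 and 96.3 CPM (-2.32, SE 0.40, adjusted p = 0.0187), and the integrin gene Itga4 was 43.3 and 51.4 against 98.7 and 157 CPM (-1.27, SE 0.26). Ifit3 was the only called gene of the 16 of the interferon list, whose median was -1.01. The count called was 10 of 16 with the set of lanes as a term, 7 of 16 against the sorted WT mice and 0 without WT unsorted replicate 4. H2-Q6 was the only class I gene called of 12, with a list median of -0.83, and 8 were called with the lane term. H2-Q6 and H2-Q7 are near-identical copies whose counts could be split between them.

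On the surface 2 antibodies were higher (1.8%) and 4 lower (3.6%) on OT-I members. The antibody to the receptor chains Vβ5.1 and 5.2, which the OT-I receptor uses, was 183 and 146 per 10000 on OT-I and 23.9 and 33.3 on WT members (3.43, SE 0.49, adjusted p = 3.36e-07). TMM scaling adds to such values here, and with total counts the log2 fold change was 2.53. Taken cell by cell it exceeded the 99th percentile of F5 members in 99.9% and 100% of OT-I members and in 11.8% to 17.1% of members of the 5 WT mice. CD4 protein was 68.0 and 51.1 against 32.2 and 28.5, and its call was lost with total counts in place of TMM scaling (log2 fold change 1.88 and 0.97). CD25, the IL-2 receptor alpha chain, was 1.75 and 1.63 against 16.8 and 33.5 (-3, SE 0.35). The gamma-delta receptor antibody was 2.13 and 4.48 against 7.02 and 23.9 (-1.48, SE 0.36, and -2.22 with total counts). Its median per cell was 1.88 and 4.13 in OT-I and 6.54 and 5.74 in these WT mice. The summed 23.9 of WT unsorted replicate 5 thus lay far above its median cell. CD25 was 0.68 and not called against the sorted WT mice, whose members had 1.83, 1.86 and 1.97. Its gene Il2ra was called lower as well, 1 of 2 tested genes of the CD4 and regulatory T cell list. Il2ra was 1.01 and 2.76 CPM in OT-I and 14.2 and 42.1 in unsorted WT members (-3.85, SE 0.74). Sorted WT members had 0, 0.414 and 0 CPM.

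MHCII-/- members, which have a diverse receptor repertoire, differed from sorted WT members in few genes. They were 5 higher (0.0494%) and 8 lower (0.079%), and 227 had an unadjusted p under 0.05. The 13 calls became 2 to 10 with 1 mouse left out and 38 with the set of lanes as a term. Over the 13 pathway lists 1 gene passed, Ccl5, a chemokine of effector CD8 cells, at 2.52 and 6.24 CPM against 43.1, 51.7 and 29.3 (-3.13, SE 0.37, adjusted p = 0.00169). The unsorted WT members had it at 1.58 and 0 CPM.

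Most of the other called genes lay on the chromosome of the deleted locus. Of the 13, 8 were on chromosome 17 (61.5%, against 5.40% of tested genes with a position), between Tagap1 at chr17:6954965-6961565 and A930015D03Rik at chr17:35994504-36038174 (mm10), and H2-Ab1 itself lies at chr17:34263227-34269418. Rnaset2b, an RNase gene, was 2.31 and 3.17 CPM against 139, 113 and 132 (-5.46, SE 0.28, adjusted p = 7.09e-09). Glo1, a detoxifying enzyme gene known to vary between strains, was 223 and 235 against 84.7, 82.7 and 83.8 CPM (1.46, SE 0.21, adjusted p = 0.00557). The same share was 3.85% for OT-I and 6.49% for F5. Whether flanking DNA of the targeted allele differs between these mice was not tested.

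RNA of the targeted gene did not pass the test. H2-Ab1 was 16.4 and 13.4 CPM in MHCII-/- members and 7.18, 0 and 0 in sorted WT members (2.92, SE 0.88, adjusted p = 0.992), with a UMI in 11.3% and 12.02% of members against 0% to 1.32%. Which part of the gene the allele lacks was not stated, so a 3′ count does not check the genotype. The MHC class II antibody I-A/I-E was 4.81 and 4.69 per 10000 on MHCII-/- members and 81.6, 84.7 and 47.2 on WT members (-3.87, SE 0.51, adjusted p = 9.13e-08). Of the 111 antibodies 0 were higher (0.0%) and 3 lower (2.7%), and 11 had an unadjusted p under 0.05. The other lower ones, CD14 and the pan-endothelial antigen, rested on WT sorted replicate 1, the mouse of the other experiment, at 42.5 and 45.0 against 8.35 to 10.2 in the other 2 WT mice. Without that mouse their log2 fold changes were -0.30 and -0.25.

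In F5 members, set against the sorted WT mice, 225 of 10126 genes were higher (2.22%) and 335 lower (3.31%). The 560 calls became 249 to 365 with 1 mouse left out, 296 against the unsorted WT mice and 1926 with the set of lanes as a term. Almost all of the interferon list was lower, with most of the class I list and part of the cytotoxic and memory-like lists. Some of the genes that rose came from few cells.

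Of 16 interferon genes 15 were lower in F5, with a list median of -3.40 against 0.03 over all genes. Ifi27l2a was 7.80 and 16.0 CPM in F5 and 1386, 1209.5 and 1253 in sorted WT members (-6.97, SE 0.59, adjusted p = 1.43e-06). Rtp4, an interferon-induced chaperone gene, was 3.18 and 4.22 CPM against 154, 165 and 141 (-5.59, SE 0.32, adjusted p = 3.61e-08). Ifit3 had 1 UMI in all F5 members together and 362 in the WT members, a ratio of 397 (exact 95% interval 70.8 to 15730.2 for counting error). The F5 and WT ranges did not overlap in any of these 3 genes. Ifi203 was the gene that did not pass. Against the unsorted WT mice 14 of 16 were lower, and every other alternative run gave 15 or 16.

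The class I list followed, with 9 of 12 genes lower (median -1.58). H2-K1, a classical class I chain, was 351 and 456 CPM in F5 and 1850.3, 1785 and 1389 in WT members (-2.24, SE 0.30, adjusted p = 0.000126). B2m, the light chain of every class I molecule, was 537 and 561 against 1427, 1551 and 1461 CPM (-1.63, SE 0.31), and Nlrc5, the transactivator of class I genes, 4.91 and 5.06 against 41.6, 41.4 and 27.3 CPM (-3.08, SE 0.34). H2-Q7 was 0.289 and 12.7 against 297, 319 and 183 CPM (-5.70, SE 0.73). Tap2, H2-T23 and Psmb8 did not pass. Against the unsorted WT mice 7 of 12 were lower.

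The AND members, also Rag1-/- and unsorted, were 62 and 25 cells to which the CD8 label did not apply. Their Ifi27l2a was 85.3 and 388 CPM and their Ifit3 was 0 CPM in both mice, with no test. Of the 16 genes 15 and 14 lay below all 5 WT mice, and Usp18 in AND replicate 2 lay above them (72.1 CPM). OT-II replicate 1, with 17 members, had Ifi27l2a at 914 and Ifit3 at 52.9 CPM, with 6 of the 16 genes below all 5 WT mice and 4 above. In OT-I, which is not on a Rag1-/- background, 10 and 12 of the 16 lay below all 5. The share of all genes that lay below all 5 WT mice is not given here, so these counts only describe the list. The part of Rag1 loss in them was not tested.

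**Figure D4:**
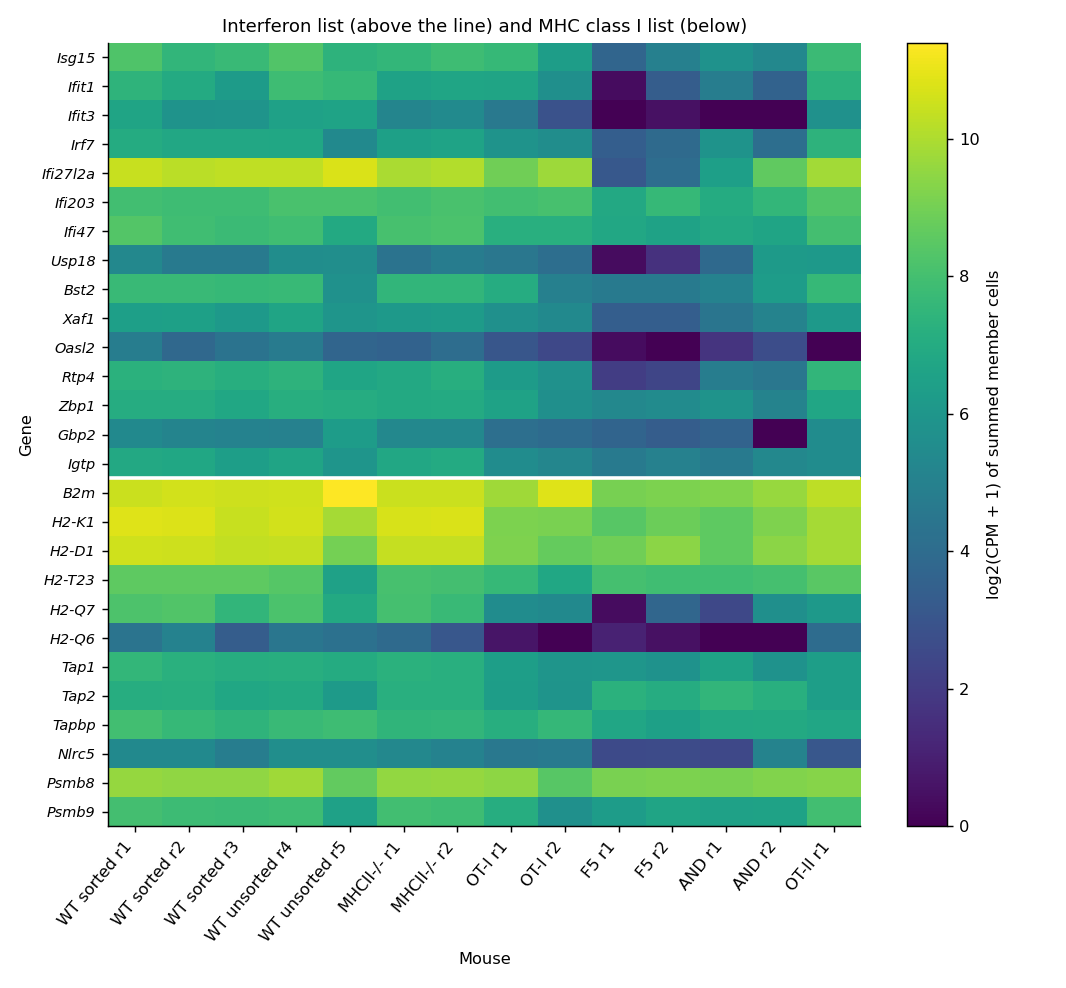
log2(CPM + 1) of 15 of the 16 interferon genes and of 12 MHC class I genes in the summed members of each mouse with at least 10 members; columns are mice, grouped by genotype. The F5 columns are dark in most interferon rows, as for Ifi27l2a, at 7.80 and 16.0 CPM in F5 against 1209.5 CPM or more in sorted WT members.

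The promoters of these genes were searched for a known interferon motif. The interferon-stimulated response element binds the factors that carry the signal, and its core was searched as GAAA, then NN (any bases), then GAAA, on both strands in the 250 bases upstream of the start site. A promoter table from RefSeq (GRCm38.p6) matched 11 of the 16 interferon genes, and 7 of them held it in a promoter (63.6%), against 936 of all 27025 genes (3.46%) and 2.98% of the 32851 promoters. It matched 10 of the 12 class I genes, of which 2, B2m and H2-T23, held it. A match is a description of letters and not a site shown to be used. Stretches of 4 promoters are printed 5′ to 3′ on the gene's strand with the matches in capitals, which overlap each other in Isg15. Ifit3 is shown at chr19:34583348-34583441 (plus strand), Ifit1 at chr19:34640760-34640838 (plus), Isg15 at chr4:156200850-156200921 (minus) and B2m at chr2:122147523-122147582 (plus).
Ifit3: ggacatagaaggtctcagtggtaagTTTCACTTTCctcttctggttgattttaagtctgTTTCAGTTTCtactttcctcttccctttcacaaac
Ifit1: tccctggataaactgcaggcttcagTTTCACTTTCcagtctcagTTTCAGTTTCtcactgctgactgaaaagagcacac
Isg15: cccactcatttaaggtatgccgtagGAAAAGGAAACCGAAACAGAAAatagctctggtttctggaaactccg
B2m: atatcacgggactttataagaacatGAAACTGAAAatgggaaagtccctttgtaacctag
The first 3 genes fell by 8.48, 5.05 and 3.64 on the log2 scale in F5, and B2m by 1.63. Genes without a match fell as well, Oasl2 by 6.64, Irf7 by 3.53, Xaf1 by 3.27 and Ifi47 by 1.52, and Ifi203, which has a match, did not pass (-0.78).

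The effector programs of CD8 cells were lower in part. Of 9 cytotoxic genes 5 were lower and 1, Gzma, higher. Ccl5 had 2 UMIs in F5 members and 229 in sorted WT members. Klrd1 was 17.6 and 24.1 CPM against 91.9, 86.5 and 87.1 (-2.30, SE 0.29, adjusted p = 9.16e-05). The granule-associated cathepsin gene Ctsw was 203 and 173 against 436, 441 and 372 CPM (-1.35, SE 0.21). Xcl1, a chemokine gene, had 0 UMIs in F5 and 138 in WT members, at least 50.5-fold lower against a floor of 3 UMIs over the group. Of 8 memory-like genes 4 were lower, among them Ly6c2 (-6.35), Id2 (-2.80) and Eomes (-3.99), and Il18r1 was higher. Against the unsorted WT mice no cytotoxic gene was lower and 3 memory-like genes were. Without F5 replicate 2 there were 3 lower cytotoxic genes, and without F5 replicate 1 there were 2 lower memory-like genes.

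Exit and retention genes were called in part. Of 11 exit and maturity genes 3 were lower, namely Il7r, at 39.9 and 6.75 CPM against 142, 141 and 108 (-2.64, SE 0.45), the small surface glycoprotein gene Cd52 (-1.004) and H2-Q7. Klf3, a relative of Klf2, was higher (0.75). Of 7 semimature genes 2 were higher, the chemokine receptor genes Cxcr4 (2.03) and Ccr9 (1.21), of which 1 was called against the unsorted WT mice and 0 without F5 replicate 1. Itgae was 20.2 and 25.7 CPM in F5 and 162, 161 and 120.4 in WT members (-2.89, SE 0.29, adjusted p = 6.03e-06), and a UMI of it was found in 9.46% and 11.5% of F5 members, against 52.4% to 64.6% of sorted WT members. The survival gene Bcl2 was 147 and 70.5 against 367, 401 and 353 CPM (-1.99, SE 0.32). Of 7 double-positive markers 3 were higher in F5, with Arpp21 at 35.3 and 32.1 against 2.66 to 3.72 CPM. Against the unsorted WT mice, whose members held 32.4 and 102 CPM, Arpp21 was -0.55 and not called.

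The genes that rose most in F5 had unlike distributions over cells. The class II genes H2-Aa, H2-Ab1 and H2-Eb1 rose by 7.03, 7.44 and 7.62, but H2-Aa UMIs came from 10 of 539 and 11 of 471 members, with up to 333 in a single cell. The myeloid marker list had 3 of 3 tested genes higher, and 0 of 3 after cells outside the antibody filters were left out. Amd1, which encodes an enzyme of polyamine synthesis, was instead found in nearly every cell, in 99.8% and 99.6% of F5 members and in 98.8% and 99.3% of all F5 cells, against 21.4% to 38.1% of WT members. It was 1641 and 1916 CPM in F5 against 45.23, 33.9 and 35.3 in WT members (5.36, SE 0.53, adjusted p = 6.03e-06). Cdk19os rose with it, at 113 and 154 against 0 to 3.59 CPM. AND replicate 1, of the same experiment as F5 replicate 1, had both above AND replicate 2, with Amd1 at 265 against 27.7 CPM and Cdk19os at 9.22 against 0 CPM in its members, where Cdk19os rests on 4 UMIs. Of its 62 members 40.3% had an Amd1 UMI, and 22.9% of all its cells. Amd1 lies at chr10:40287458-40302188 (mm10) and Cdk19 at chr10:40349287-40483818.

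F5 members also differed on the surface, with 8 antibodies higher (7.21%) and 22 lower (19.8%). Of the higher ones CD28 was 81.3 and 53.2 per 10000 against 21.6, 15.9 and 17.1 (1.87, SE 0.34, adjusted p = 1.52e-05), CD24 was 151 and 112 against 61.3, 39.4 and 39.0 (1.49, SE 0.44), and CD4 was 174 and 145 against 79.8, 54.4 and 45.06 (1.42, SE 0.41). Of the lower ones integrin β7 was 139 and 108 against 523, 616 and 428 (-2.11, SE 0.49, adjusted p = 0.000534), and CD103 was 73.1 and 63.9 against 197, 180.4 and 183 (-1.46, SE 0.43). CD69 fell by 1.47, the IL-7 receptor chain CD127 by 1.70 and Ly-6C by 1.74. These values depend on the controls. Unsorted WT members, from another experiment, had CD24 at 109 and 59.2, CD103 at 109 and 121 and integrin β7 at 251 and 309 per 10000. Against them 16 antibodies were higher and 13 lower. CD24 (0.64), CD103 (-0.73), integrin β7 (-1.17), CD69, CD127 and Ly-6C were not called, while CD28 (2.31) and CD4 (2.41) were. CD24 on F5 members was in the range of that on immature CD8 cells of sorted WT mice (92.0 to 123) in replicate 2 and above it in replicate 1. Immature CD8 cells of the F5 mice themselves had more, at 287 and 194, so F5 members were below their own immature cells. Antibodies to proteins of other cell types were among the 10 that fell most, such as CD140a, the PDGF receptor alpha chain, at 53.0 and 33.8 against 266, 172 and 124, and NK-1.1, at 13.0 and 8.92 against 84.1, 48.4 and 42.6. Against the unsorted WT mice CD140a (1.25) and NK-1.1 (1.27) were called higher. Their part in the other calls was not tested.

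The OT-I and F5 differences were tested against each other in the same fit, as the OT-I change from unsorted WT minus the F5 change from sorted WT. For 50 genes this was above 0 (0.494%) and for 9 below (0.0889%). Of 16 interferon genes 9 were above 0 and 0 below, with a median of 2.64. The 9 became 3 without F5 replicate 1, and 5 without OT-I replicate 1 or without WT sorted replicate 1. Ifi27l2a was 481 and 859 CPM in OT-I against 1283 and 1740.0 in its WT mice, and its change differed from that of F5 by 5.88 (SE 0.69, adjusted p = 0.000382). Rtp4 was 74.8 and 53.3 against 163 and 102 CPM (difference of changes 4.51, SE 0.42). Itgae also differed (2.66, SE 0.40, adjusted p = 0.0039), with 105 and 174 CPM in OT-I. Ly6d (-7.46) and the double-positive genes Arpp21 (-4.36) and Dntt (-4.01) were on the other side. Here the WT controls also differ, with Arpp21 at 32.4 and 102 CPM in unsorted and 2.66 to 3.72 in sorted WT members, and F5 against the unsorted WT mice had Arpp21 at -0.55. No class I gene of 12 passed, with a median of 0.75. The 2 arms differ in receptor, Rag1 genotype, sort and experiment, which cannot be told apart.

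Trdc was found in most members of the OT-I, F5 and AND mice. It had a UMI in 65.0% and 51.9% of OT-I members, in 82.0% and 74.7% of F5 members and in 93.5% and 88.0% of AND members, against 4.29% to 11.5% of members of the 5 WT mice and 5.53% and 9.495% of MHCII-/- members. In OT-I and F5 the share was as high among all cells of the mouse, at 67.2% and 53.3% and at 84.3% and 84.4%. Other gamma-delta genes were rarer in OT-I and F5 members. Tcrg-C1 had a UMI in 9.55% and 9.62% of OT-I members and in 3.15% and 2.12% of F5 members, and Sox13, a factor of gamma-delta cells, in 9.30% and 6.54% and in 0.557% and 0.425%. In AND members Tcrg-C1 reached 32.3% and 36% and Sox13 24.2% and 44%. The median of the gamma-delta receptor antibody was 1.88 and 4.13 per 10000 in OT-I members, 12.8 and 13.8 in F5 and 17.8 and 28.1 in AND. It was 12.6, 11.8 and 12.7 in sorted WT members, the controls of F5. In unsorted WT members, the controls of OT-I, it was 6.54 and 5.74. In F5 Trdc was 334 CPM in both mice against 26.6, 32.7 and 8.65 CPM in sorted WT members (3.65, SE 0.41, adjusted p = 2.51e-05).

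**Figure D5:**
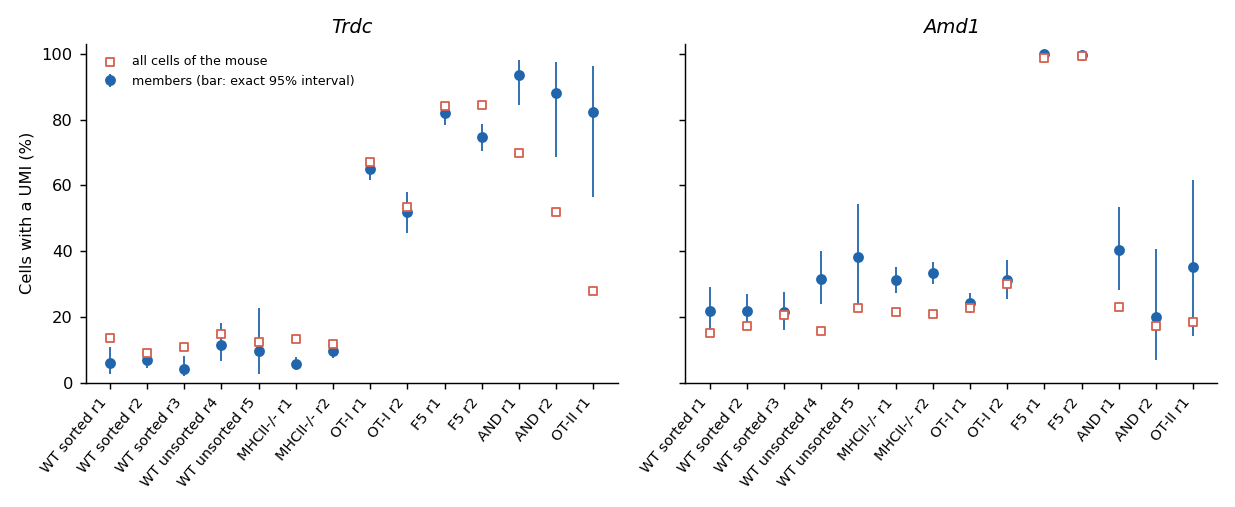
Percentage of cells with at least 1 UMI of Trdc (left) and Amd1 (right) in members (filled, with exact 95% intervals for counting error) and in all cells of the mouse (open), for mice with at least 10 members. For Trdc the OT-I, F5, AND and OT-II members lie at 51.9% or above and the WT and MHCII-/- members at 11.5% or below, and Amd1 exceeds 99% among members in F5 alone.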

How the data were processed

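The authors deposited raw UMI counts of genes and of antibody tags per cell and lane (10x 3′ libraries, Cell Ranger 3.1.0, mm10). Per lane these were 9893333 to 43303999 RNA UMIs and 4484116 to 34762051 antibody UMIs. The members and gene lists were chosen with earlier results of these data known.

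Member counts were summed per mouse, for mice with at least 10 members, and tested with edgeR 4.0.16 (quasi-likelihood, TMM, filterByExpr, 1 fit over all groups), with Benjamini-Hochberg adjusted p under 0.05 as a call. Antibody tests used members with 1000 to 10000 antibody UMIs and at least 70 antibodies. Comparisons between cells of 1 mouse had the mouse as a block and at least 10 cells a class. Splits needed 40 members. The fits were tested on simulated data. Alternatives were DESeq2 1.42.0, library size, no low-count filter, and lane set or replicate number as a block. Others left out gamma-delta UMI cells or each mouse in turn, or used other controls. Called doublets were left out only in RNA fits between genotypes and in the member shares.

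Named genes were at most 8 a direction by fold change, with a mean of at least 20 CPM and groups that did not overlap, and called genes of the lists. Genes printed for Trdc, Amd1 and chromosome 17 were chosen after their values were seen. Counting intervals are exact 95% intervals and cover counting error only. Nothing in the sources used here says that the mice of a group came from separate litters. The files that pool lanes repeat the same counts and were not used. The 7 rule genes were left out of the lists. Totals count every called gene and antibody, of which only some are reported here by name.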

Additional observations from a re-analysis of the deposited data

Results flagged for a closer look

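AND replicate 1 stood apart among the 6 CD4-fated mice, with 2.32% members. In the comparison of members with mature CD4 cells, WT unsorted replicate 5 stood apart from the other 4 WT mice for 4 antibodies. Its log2 ratio of members to CD4 cells was 0.199 for CD29 (others -0.18 to -0.08), 1.499 for CD54 (1.25 to 1.30), -1.51 for CD69 (-0.99 to -0.81) and 1.86 for the gamma-delta receptor antibody (0.01 to 0.37). In all 35 groups of values were examined, and chance marks about 1 in 20. This mouse had 42 members and the lowest median RNA depth of the WT mice, 3897 UMIs. Its median antibody depth was 4024 UMIs, above the 3538 and 3780 of WT sorted replicates 2 and 3. The gamma-delta receptor antibody was 23.9 per 10000 over its summed members, with a median of 5.74 per cell. The part of depth or of single cells in these ratios was not tested.

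The change from WT differed between OT-I and F5 members for 59 genes by the test of the difference itself. On the OT-I minus F5 scale (log2) it was above 0 for Ifit3 (6.16), Ifi27l2a (5.88), Ly6c2 (4.54), Rtp4 (4.51), Tspan9 (4.37), Usp18 (3.75), Pydc4 (3.35) and Actn2 (2.69). It was below 0 for Ly6d (-7.46), Arpp21 (-4.36), Dntt (-4.01), Ssbp2 (-2.01) and Pla2g16 (-1.74).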

How the results depend on the processing

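Of 1949 values of 144 named and called features under the alternatives, 1750 kept their direction and side of the threshold, 192 kept their direction only and 7 reversed. These were Arpp21 (-0.55) and the antibodies CD140a (1.25) and NK-1.1 (1.27) in F5 against the unsorted WT mice, CD25 in OT-I against the sorted ones (0.68), Ly6c2 in the CD103 split within CD24-low members (-0.41), and Xcl1 in the CD24 split with DESeq2 (-0.48) and without MHCII-/- replicate 2 (-0.12, and from there to 1.16 over the mice left out). The counts of called features moved more. OT-I against WT gave 28 genes, 138 with lane set as a block, 113 without the low-count filter, 18 without members with a gamma-delta UMI, 422 against the sorted WT mice and 8 to 84 with 1 mouse left out. The low was without WT unsorted replicate 4. MHCII-/- gave 13, then 38 with lane set, 48 without the filter and 2 to 10 with 1 mouse left out. F5 gave 560, then 1926 with lane set, 296 against the unsorted WT mice and 249 to 365 with 1 mouse left out. The difference of changes gave 59, then 437 with lane set, 164 without the filter and 23 to 149. For antibodies, OT-I gave 6 (3 to 15 with 1 mouse left out, 46 against the sorted WT mice) and F5 30 (24 to 28, and 29 against the unsorted). MHCII-/- gave 3, 5 with the replicate block, 1 with lane set, library size, DESeq2 or all members, and 1 to 5 with 1 mouse left out. Without the mouse as a block (no replicate block) the counts fell to 5 against immature CD8 cells (17 to 24 with 1 mouse left out), 10 against mature CD4 cells (19 to 33), 82 for the CD24 split (1094 to 1445) and 19 for the CD103 split (722 to 1032). With OT-I and F5 mice only, the splits gave 663 and 482, and within CD24-low members the CD103 split gave 91. The cause of these changes was not tested. The share of members moved between 13.3 and 15.9 points and the mature share between 4.75 and 17.7 with 1 mouse left out.

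Replicate numbers did not pair the mice, since correlations of same-numbered deviations ran from -0.07 to 0.11. The replicate block gave 14 genes for MHCII-/- and 390 for F5. No such fit was possible for OT-I, which shares no number with its controls. The alternatives on other WT mice, gamma-delta cells, mouse subsets and CD24-low cells were chosen after seeing the data. Precision rests on 2 or 3 mice a group.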
